A study of Mus musculus with 6 samples.

Results

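The 10 imprinted genes Igf2, H19, Peg3, Plagl1, Cdkn1c, Grb10, Slc38a4, Igf2r, Kcnq1ot1 and Peg13, which are tied to growth, were followed in newborn mouse epidermis with and without the conditional knockout of Hnrnpu. They were picked by name from 12894 genes of a bulk RNA sequencing table, and all 10 were measured. The choice was made with the knockout-to-control values of these libraries already known, so those values are a description and carry no test. Epidermis was separated from dermis of C57BL/6 mice at postnatal day 0. The 3 libraries labelled Hnrnpu knockout, called KO 1 to KO 3 here, came from animals in which Hnrnpu was deleted with loxP and Cre. The labels do not name the promoter that drives Cre. Of the 3 control libraries, control 1 was labelled wild type, and controls 2 and 3 carried the genotype label Heterogenous, which the labels do not explain. Whether the controls carried Cre is not given in the sources used here. Each title has its own number and the libraries are taken as separate animals, which the labels do not state, so p-values measure the spread between these libraries. Values are normalized counts per gene, summed over all cells of the sheet and over both parental alleles.

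Imprinted genes are transcribed mainly from the allele of one parent, which is set by DNA methylation laid down in the germ line. In fetal tissues many paternally expressed members favour growth and many maternally expressed members restrain it. Igf2 encodes a fetal growth factor that signals through the receptors Igf1r and Insr. H19 is a long noncoding RNA transcribed from the neighbouring gene, and the pair share enhancers, with insulation by CTCF on the maternal chromosome. Igf2r carries the same ligand to the lysosome for breakdown, and Grb10 is an adaptor that dampens insulin and IGF receptor signalling. Cdkn1c encodes p57, an inhibitor of cyclin-dependent kinases, and Kcnq1ot1 is a noncoding RNA that silences Cdkn1c and its neighbours in cis. Hnrnpu encodes a nuclear RNA-binding protein of the hnRNP family.

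The promoters of Grb10, Igf2r, Igf2 and Slc38a4 are shown first, because CpG is the dinucleotide that imprinting methylates and its number varied widely among these windows. RefSeq start sites on GRCm38.p6 were matched by symbol for 7 of the 10 members, with 13 start sites in all. H19, Cdkn1c and Peg13 were not matched. Each sequence runs from 250 bases before to 50 bases after the start, 5′ to 3′ on the gene's strand, and capitals mark CpG.
Grb10, chr11:12037371-12037670, minus strand: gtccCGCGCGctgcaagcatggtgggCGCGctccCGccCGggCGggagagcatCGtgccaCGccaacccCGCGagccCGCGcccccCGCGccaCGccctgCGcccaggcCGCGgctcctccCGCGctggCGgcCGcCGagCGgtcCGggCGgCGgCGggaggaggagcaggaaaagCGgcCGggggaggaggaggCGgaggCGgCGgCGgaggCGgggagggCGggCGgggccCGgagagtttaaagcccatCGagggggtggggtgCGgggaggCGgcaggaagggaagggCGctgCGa
Igf2r, chr17:12769657-12769956, minus strand: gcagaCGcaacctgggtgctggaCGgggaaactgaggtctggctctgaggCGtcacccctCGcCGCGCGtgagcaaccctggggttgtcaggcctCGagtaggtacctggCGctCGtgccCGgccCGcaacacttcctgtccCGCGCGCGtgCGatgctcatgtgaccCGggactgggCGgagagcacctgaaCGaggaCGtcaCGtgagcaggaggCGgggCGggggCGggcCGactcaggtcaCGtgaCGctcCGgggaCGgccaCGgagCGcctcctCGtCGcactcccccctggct
Igf2, chr7:142666767-142667066, minus strand: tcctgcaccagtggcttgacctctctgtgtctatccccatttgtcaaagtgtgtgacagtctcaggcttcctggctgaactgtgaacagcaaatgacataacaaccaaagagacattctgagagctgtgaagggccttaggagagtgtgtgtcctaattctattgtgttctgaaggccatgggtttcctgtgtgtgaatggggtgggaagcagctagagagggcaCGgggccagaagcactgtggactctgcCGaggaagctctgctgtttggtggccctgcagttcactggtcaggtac
Slc38a4, chr15:97055907-97056206, minus strand: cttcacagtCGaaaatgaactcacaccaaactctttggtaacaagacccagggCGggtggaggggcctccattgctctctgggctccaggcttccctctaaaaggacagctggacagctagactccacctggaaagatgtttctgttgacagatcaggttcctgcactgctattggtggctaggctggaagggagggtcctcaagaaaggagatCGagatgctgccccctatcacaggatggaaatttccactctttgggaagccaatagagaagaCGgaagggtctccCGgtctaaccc
The Grb10 start site printed held 45 CpG in 300 bases, more than 98.1% of the 32851 mouse promoters of that length, and the Igf2r one held 34, more than 92.3%. The other Grb10 start site held 9. The Igf2 start sites held 2, 14, 24 and 7 CpG, and each of the 3 Slc38a4 sites held 5. Plagl1 had 26, Peg3 13 and Kcnq1ot1 9, against a median of 7 over all promoters. The Igf2 site printed was the one with the fewest CpG, and the Grb10 site the one with the most. Plagl1, called lower below, held 26 and is not printed. No link of CpG number to direction is therefore read from the windows printed, and their methylation was not analysed. Gene counts do not show which start site was used, so no start site is tied to a change.

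A set of 4 motifs was searched on both strands of the 13 windows: TATAAA, the cyclic AMP response element TGACGTCA, the ATF4 and C/EBP composite TGATGNAA, and GGGGCCCC, a GC-rich palindrome. They occur in 13.6%, 1.79%, 3.97% and 1.08% of all promoters. Only 2 start sites held any of the 4. Slc38a4 had TATAAA at its second start site, and Peg3 held TGACGTCA and GGGGCCCC, which do not overlap each other. The Peg3 window is printed with those matches in capitals.
Peg3, chr7:6730370-6730669, minus strand: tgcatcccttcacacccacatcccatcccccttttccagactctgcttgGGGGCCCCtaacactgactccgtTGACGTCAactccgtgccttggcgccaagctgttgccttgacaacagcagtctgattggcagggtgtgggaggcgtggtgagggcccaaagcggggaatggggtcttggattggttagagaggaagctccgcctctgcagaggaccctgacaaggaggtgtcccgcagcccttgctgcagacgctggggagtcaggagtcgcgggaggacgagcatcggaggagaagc

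The targeted gene was examined before its groups were compared. Hnrnpu (ENSMUSG00000039630, chromosome 1) had 1565, 1342 and 1036 normalized counts in KO 1 to KO 3, against 1450, 1318 and 1160 in controls 1 to 3. On the log2 scale KO differed by −0.01 ± 0.20 (SE over 3 and 3 libraries; limma adjusted p = 0.976), and its sign turned without KO 3 (0.15), without control 1 (0.07), with array weights (0.02) and with KO 1 alone (0.26). The gene count covers the whole gene and the deleted part is not stated, so it does not check the genotype, and every direction below rests on the labels. Estimated depth was 6450000 to 8770000 assigned reads in the libraries labelled knockout and 8270000 to 9110000 in the controls. Over all 12872 genes tested, 2279 were higher and 2049 lower at an adjusted p of 0.05 (limma, Benjamini-Hochberg), so 33.6% were called, 17.7% higher and 15.9% lower. Xist had 1.87, 5656 and 4758 normalized counts in KO 1 to KO 3 and at most 3.27 in a control. The Y-linked Ddx3y had 323, 0 and 0 in KO 1 to KO 3, against 574, 646 and 544 in controls 1 to 3. By these transcripts KO 2 and KO 3 were female and KO 1 and the controls male, so sex differs between the groups, and in KO 2 and KO 3 it cannot be told apart from genotype in any difference below. KO 1 was therefore also compared alone with the controls. There the log2 changes of Igf2, H19, Slc38a4, Plagl1 and Peg3 were −3.51, −3.66, −3.45, −1.41 and −1.06. Those of Grb10, Igf2r, Cdkn1c, Kcnq1ot1 and Peg13 were 4.08, 0.97, 0.25, 0.06 and −0.80. With that 1 library the spread comes from the controls alone and KO 1 is assumed to vary like them, so calls lost or gained there rest on that assumption.

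Growth-promoting members were lower in the libraries labelled knockout and the restraining members were split. The growth classes were assigned here and not measured, and among these 8 genes they coincide with parental origin. Igf2, Slc38a4, Plagl1 and Peg3, classed as growth-promoting and all paternally expressed, had log2 changes below 0. Their median was −2.51, and all 4 were called lower. Of the 4 genes classed as growth-limiting, H19, Cdkn1c, Grb10 and Igf2r, all maternally expressed, 3 had changes above 0 and H19 was below. Their median was 0.79, and Grb10 and Igf2r were called higher. Together, 5 of 10 members were called lower and 2 higher, and the 3 values of one group lay wholly beyond those of the other for 8, against 33.6% of all genes called and 50.8% of all genes without overlap. The genes were chosen on this contrast, so nothing is read from those counts.

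**Figure D1:**
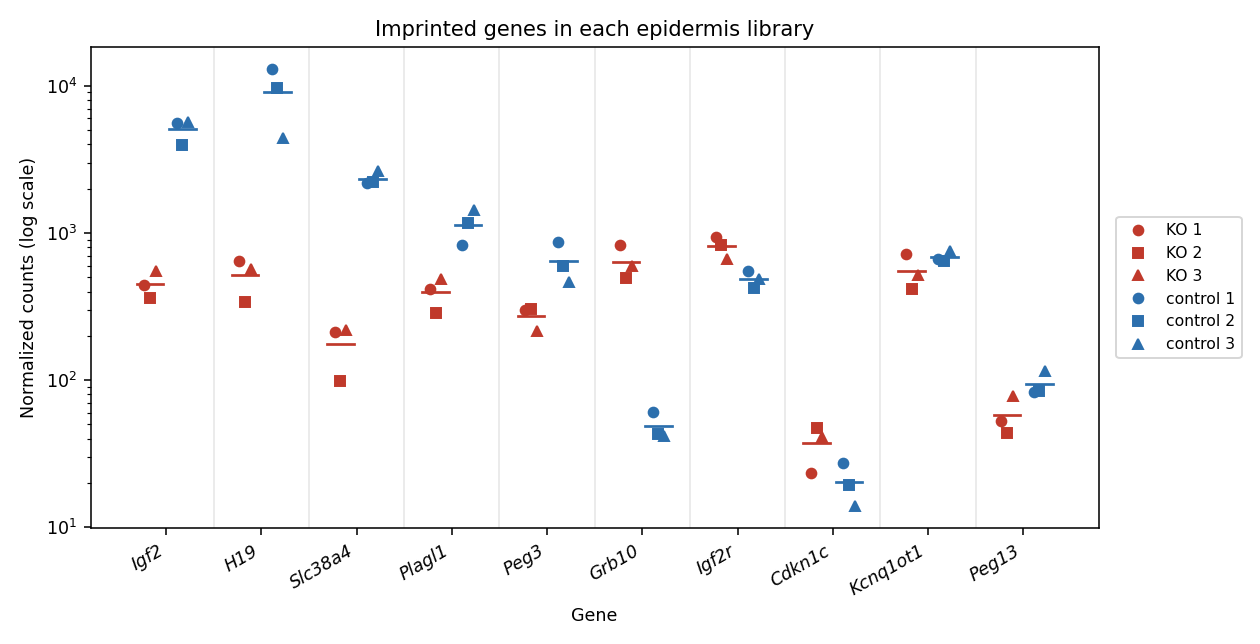
Normalized counts (log scale) of the 10 imprinted genes in each library, with KO in red left of control in blue, 1 marker shape per replicate number and a bar at the group mean. Igf2, H19 and Slc38a4 lie about a decade lower in KO, Grb10 lies about a decade higher, and Cdkn1c and Kcnq1ot1 overlap.

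Igf2 (ENSMUSG00000048583, chromosome 7) had 441, 362 and 553 normalized counts in KO 1 to KO 3, against 5565, 3986 and 5709 in controls 1 to 3. The groups were far apart, and within a group the highest library had 1.53 times the lowest in KO and 1.43 times in controls. KO was lower by a log2 difference of −3.49 ± 0.22 (SE over 3 and 3 libraries), or 11.2-fold, with a 95% interval of −4.0 to −2.99. It ranked 145th from the lowest of the 12872 genes tested. Igf2 overlaps its antisense transcript Igf2os in the annotation, and strand use in counting is not stated.

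H19 (ENSMUSG00000000031, chromosome 7), the noncoding neighbour of Igf2, had 649, 340 and 568 normalized counts in KO 1 to KO 3, against 12941, 9704 and 4394 in controls 1 to 3. Even the lowest control was above every KO library, but the controls differed among themselves by 2.94 times, more than for any other member. Its log2 difference was −4.03 ± 0.40, 16.4-fold lower, and it was −4.48 without control 3 and −3.70 without control 1. Its rank was 87th from the lowest. The control with the wild type label was the highest, and the 2 controls labelled Heterogenous stood apart from each other by more than one of them did from the wild type.

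H19 did not stand alone in its spread among controls. Of the basal keratinocyte markers, Krt5, Krt14, Krt15, Itga6, Itgb4 and Col17a1 were also highest in control 1 and lowest in control 3, while Trp63 was highest in control 2. Krt5 stood at 15413, 5982 and 6463 normalized counts in KO 1 to KO 3, against 20825, 13693 and 7878 in controls 1 to 3. These markers did not share a direction between the groups. Krt14, a basal keratin, stood at 59688, 115333 and 21768 in KO 1 to KO 3, against 10309, 5712 and 3208 in controls 1 to 3, and rose by a log2 value of 3.21 ± 0.61 (limma adjusted p = 0.00547). Krt15, another basal keratin, stood at 50.5, 5.10 and 52.1 in KO 1 to KO 3, against 4009, 3406 and 1833 in controls 1 to 3, and was lower by a log2 value of −6.84 ± 0.76 (limma adjusted p = 6.00e-04), or −7.37 to −5.81 over the alternatives. Krt14 was at 3.85 without KO 3, 2.65 without KO 2 and 2.5 with quantile normalization. The other 5 were not called (limma adjusted p of 0.203 to 0.282). Their part in the H19 values was not tested. In bulk tissue, fewer cells of a type and less RNA per cell cannot be told apart.

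Slc38a4 (ENSMUSG00000022464, chromosome 15), a paternally expressed amino acid transporter of the sodium-coupled system A family, had 212, 98.7 and 220 normalized counts in KO 1 to KO 3, against 2168, 2204 and 2634 in controls 1 to 3. KO 2 was the lowest of all 6 libraries, and the controls differed by only 1.21 times. The difference came to −3.80 ± 0.30 on the log2 scale, 13.9-fold lower.

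Plagl1 (ENSMUSG00000019817, chromosome 10), a zinc finger transcription factor, had 419, 284 and 487 normalized counts in KO 1 to KO 3, against 822, 1170 and 1426 in controls 1 to 3. All 3 KO libraries were below every control, with KO 2 again the lowest. The log2 difference was −1.52 ± 0.27, 2.87-fold lower. Peg3 (ENSMUSG00000002265, chromosome 7), another paternally expressed zinc finger gene, had 298.1, 302.8 and 217.3 normalized counts in KO 1 to KO 3, against 873.6, 594.2 and 464.3 in controls 1 to 3. The groups did not overlap, and the spread of the controls, 1.88 times, nearly matched the difference of the groups. The log2 difference was −1.20 ± 0.26, and with KO 1 alone against the controls it was −1.06 and no longer called.

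Grb10 (ENSMUSG00000020176, chromosome 11) went the other way. It had 827, 492 and 592 normalized counts in KO 1 to KO 3, against 61.2, 43.4 and 41.7 in controls 1 to 3. The lowest KO library exceeded the highest control about as clearly as the groups of Igf2 were separated. The log2 difference was 3.67 ± 0.26, 12.7-fold higher, which ranked 201st from the highest of all genes tested. Without any single library it stayed called.

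Igf2r (ENSMUSG00000023830, chromosome 17) differed by far less than its ligand. It had 944, 827 and 669 normalized counts in KO 1 to KO 3, against 550, 420 and 485 in controls 1 to 3. The groups did not overlap, and the log2 difference was 0.74 ± 0.20, 1.67-fold higher. The call was lost without KO 1 (0.62), without control 2 (0.64), without control 3 (0.74) and with equal library totals (0.40). In mouse Igf2r is maternally expressed and its antisense partner Airn, a noncoding RNA that silences it on the paternal allele, had 32.7, 10.2 and 12.2 normalized counts in KO 1 to KO 3 and 18.9, 9.74 and 3.27 in controls 1 to 3. Airn overlapped between groups (log2 difference 0.82 ± 0.74, limma adjusted p = 0.411, or 0.23 without control 3).

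Cdkn1c and Kcnq1ot1, neighbours on chromosome 7, did not separate the groups. Cdkn1c (ENSMUSG00000037664) was the lowest member in counts, with 23.4, 47.6 and 41.0 in KO 1 to KO 3, against 27.2, 19.5 and 13.9 in controls 1 to 3. KO 1 lay among the controls, and the log2 difference of 0.84 ± 0.42 had a 95% interval of −0.12 to 1.81. Kcnq1ot1 (ENSMUSG00000101609) had 720, 417 and 520 normalized counts in KO 1 to KO 3, against 670, 641 and 759 in controls 1 to 3. Its difference was −0.35 ± 0.22, with an interval of −0.86 to 0.16, and 0.06 with KO 1 alone. Kcnq1ot1 overlaps Kcnq1 on the other strand, and reads of the pair cannot be told apart without strand.

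Peg13 (ENSMUSG00000106847, chromosome 15), a noncoding RNA that lies within Trappc9, had 53.1, 43.7 and 77.6 normalized counts in KO 1 to KO 3, against 82.9, 84.1 and 115 in controls 1 to 3. The highest KO library came close to the lowest control. The log2 difference was −0.71 ± 0.29, not called. With adjacent animal numbers as pairs it was called at the same −0.71, as it was without KO 3 (−0.93) and with equal library totals (−1.05). These pairs were taken from the data, since the labels state no shared litter. Calls gained with the pairing, here and below, are therefore not independent evidence. Trappc9 itself, which overlaps Peg13 on the same strand in the annotation, had 215, 193 and 218 normalized counts in KO 1 to KO 3 and 218, 232 and 274 in controls 1 to 3, with a log2 difference of −0.20 ± 0.19 (limma adjusted p = 0.423).

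Levels of different genes were compared per kilobase of exon. In the libraries labelled knockout H19 was first with a mean of 211 normalized counts per kilobase, followed by Igf2r (87.4), Igf2 (79.0) and Grb10 (70.1). The ranges of those last 3 overlapped, at 71.8 to 101 for Igf2r, 63.3 to 96.7 for Igf2 and 54.1 to 91.0 for Grb10. Plagl1 (50.7), Slc38a4 (41.5), Peg3 (20.5), Cdkn1c (18.3), Peg13 (12.3) and Kcnq1ot1 (5.93) came after them by their means. The range of Plagl1, 36.3 to 62.3, overlapped that of Grb10. The range of Slc38a4, 23.2 to 51.5, overlapped those of Plagl1 and Cdkn1c. Peg3 (16.3 to 22.7), Cdkn1c (11.5 to 23.4) and Peg13 (9.25 to 16.4) overlapped each other. In controls, H19 had 3664, Igf2 889 and Slc38a4 548 per kilobase, well above Plagl1 (146), Igf2r (52.1), Peg3 (48.3), Peg13 (19.9), Cdkn1c (9.90) and Kcnq1ot1 (7.41), and Grb10 was last with 5.36. Ranges of Igf2r and Peg3 overlapped in controls, as did those of Cdkn1c and Kcnq1ot1. By its mean Grb10 was last of the 10 members in controls, and in KO it lay within the overlapping ranges of Igf2r, Igf2 and Plagl1.

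Ratios within a library show how the members shifted against each other, free of the library's scale. Igf2 over Igf2r, ligand over clearing receptor, had a log2 ratio of counts of −1.10, −1.19 and −0.27 in KO 1 to KO 3, against 3.34, 3.24 and 3.56 in controls 1 to 3. Igf2 over Grb10 had −0.91, −0.44 and −0.10 in KO 1 to KO 3, against 6.48, 6.49 and 7.06 in controls 1 to 3. These 2 ratios differed by −4.23 and −7.16 between group means, and each group's SD was at most 0.50. Igf2 over H19 had −0.56, 0.09 and −0.04 in KO 1 to KO 3, against −1.22, −1.28 and 0.38 in controls 1 to 3, so the groups overlapped and the difference of 0.54 was within the control SD of 0.94. Leaving out control 3 took it to 1.08, and leaving out control 2 to 0.25. Cdkn1c over Kcnq1ot1 had −4.89, −3.10 and −3.63 in KO 1 to KO 3, against −4.57, −4.97 and −5.67 in controls 1 to 3, with KO 1 among the controls.

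**Figure D2:**
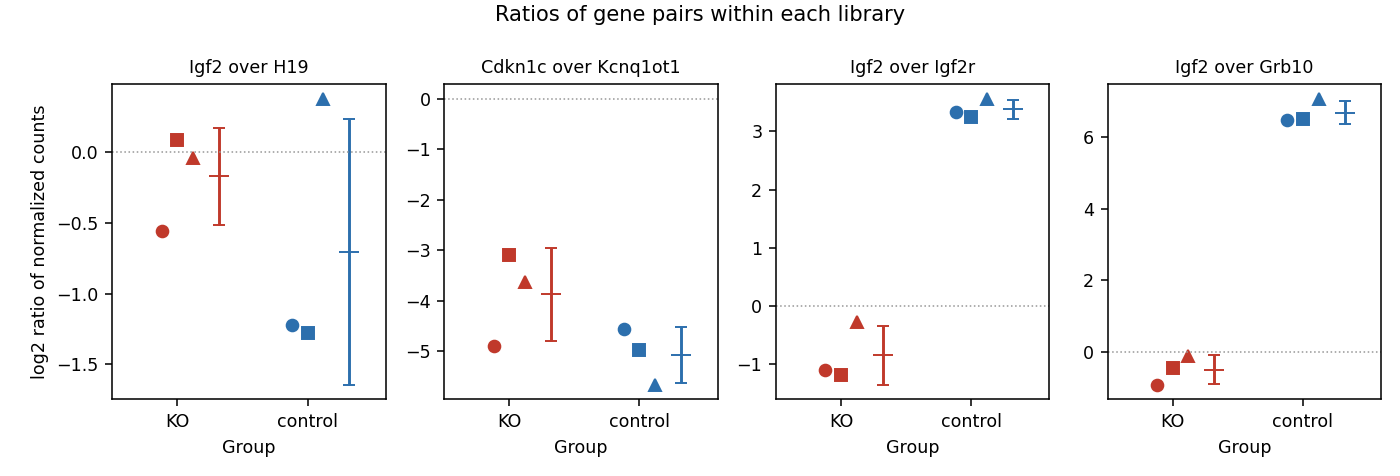
The log2 ratio of normalized counts of 4 gene pairs in each library, KO in red left of control in blue, with the group mean and SD beside the points; each panel has its own scale. Igf2 over Igf2r and over Grb10 are wholly lower in KO, while Igf2 over H19 and Cdkn1c over Kcnq1ot1 overlap.

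The 3 genes with the most similar profile were found for each of Igf2, H19 and Grb10, by Euclidean distance between log2 profiles centred over the 6 libraries, among genes with a mean of at least 30 and outside the members. The profiles hold the contrast on which the members were chosen, so the likeness is a description and carries no test. For Igf2 they were Gm19680, Gm32089 and Lacc1 (distances 0.55, 0.60 and 0.67), of which Lacc1 had 23.4, 13.6 and 35.5 normalized counts in KO 1 to KO 3 and 232, 199 and 222 in controls 1 to 3. For H19 they were Adamts9, a matrix protease, Fras1, a basement membrane protein, and Vegfd, a lymphatic growth factor (distances 0.97, 1.04 and 1.09). Fras1 had 175, 44.2 and 123 normalized counts in KO 1 to KO 3 and 2196, 1282 and 1156 in controls 1 to 3. For Grb10 they were Atp1b1, a sodium pump subunit, Slc6a9, a glycine transporter, and Mthfd1l, a mitochondrial folate enzyme (distances 0.52, 0.68 and 0.73). Atp1b1 had 595, 435 and 627 normalized counts in KO 1 to KO 3 and 68.4, 38.5 and 42.5 in controls 1 to 3. Some of these genes passed the mean of 30 through a single group. In KO 1 to KO 3, Adamts9 had 9.35, 6.81 and 4.44 normalized counts, Vegfd 6.54, 3.4 and 8.87, and Gm32089 4.67, 5.1 and 8.87. Those genes, with Gm19680 and Lacc1, passed through the controls, and Mthfd1l passed through KO.

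Imprinted genes beyond the 10 were called about as often as all genes. Of 71 others listed, 33 were measured, and 7 were higher and 4 lower, which is 33.3% against 33.6% of all genes tested. Their median log2 change was −0.20, against −0.02 over all genes, and 4 of the 7 higher genes lie in the chromosome 7 cluster of Kcnq1ot1 and Cdkn1c. Pairing by adjacent numbers gave 8 higher and 7 lower, while over all genes it gave 2952 higher (22.9%) and 2829 lower (22.0%), 44.9% in all. Cd81, a tetraspanin of the cell surface, had 1620, 2312 and 1745 normalized counts in KO 1 to KO 3 and 288, 299 and 200 in controls 1 to 3, and rose by a log2 value of 2.85 ± 0.22 (limma adjusted p = 1.27e-04). Slc22a18, a transporter of the organic cation family, rose by 2.35 ± 0.30 (limma adjusted p = 0.00102). Tnfrsf23, a decoy receptor of the TNF family, rose by 1.86 (limma adjusted p = 0.00356), a call lost with KO 1 alone (1.68). Tssc4 rose by 1.11 (limma adjusted p = 0.0183), a call lost without control 2 (1.0) and with equal library totals (0.78). These 4 genes were not the whole cluster. Of its 8 listed neighbours measured, 4 were higher, against 17.7% of all genes, and 4 were not called. The log2 changes of those not called were −0.30 to 0.45, and among them Cars was called without KO 3 (0.79).

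Outside that cluster, Zdbf2, a paternally expressed gene of chromosome 1, had 77.6, 39.1 and 35.5 normalized counts in KO 1 to KO 3 and 5.29, 3.54 and 4.09 in controls 1 to 3, and rose by 3.21 ± 0.50 (limma adjusted p = 0.00236), or 3.90 with KO 1 alone. H13, a signal peptide peptidase, rose by 1.11 (limma adjusted p = 0.00406). Blcap rose by 0.80 (limma adjusted p = 0.0225), a call lost without KO 2 (0.69), without control 1 (0.66), without control 2 (0.85), with equal library totals (0.46) and with KO 1 alone (0.53). The lower genes were the signalling adaptor Gab1 (−0.83, limma adjusted p = 0.00475), the coat protein gene Copg2 (−0.90, limma adjusted p = 0.00913), and the paraoxonases Pon3 (−1.40, limma adjusted p = 0.00957) and Pon2 (−0.54, limma adjusted p = 0.0378). The Pon3 call was lost with KO 1 alone (−1.09), and that of Pon2 without KO 1 (−0.45), KO 2 (−0.55) or any of controls 1 to 3 (−0.50, −0.58 and −0.55) and without the trend (−0.54). Ago2 and Gnas, the genes of highest level that were not called, had log2 differences of 0.55 and 0.31, and Gnas was at −0.03 with equal library totals. Ago2 was called with the pairing at the same 0.55, with array weights (0.56) and without KO 3 (0.72).

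**Figure D3:**
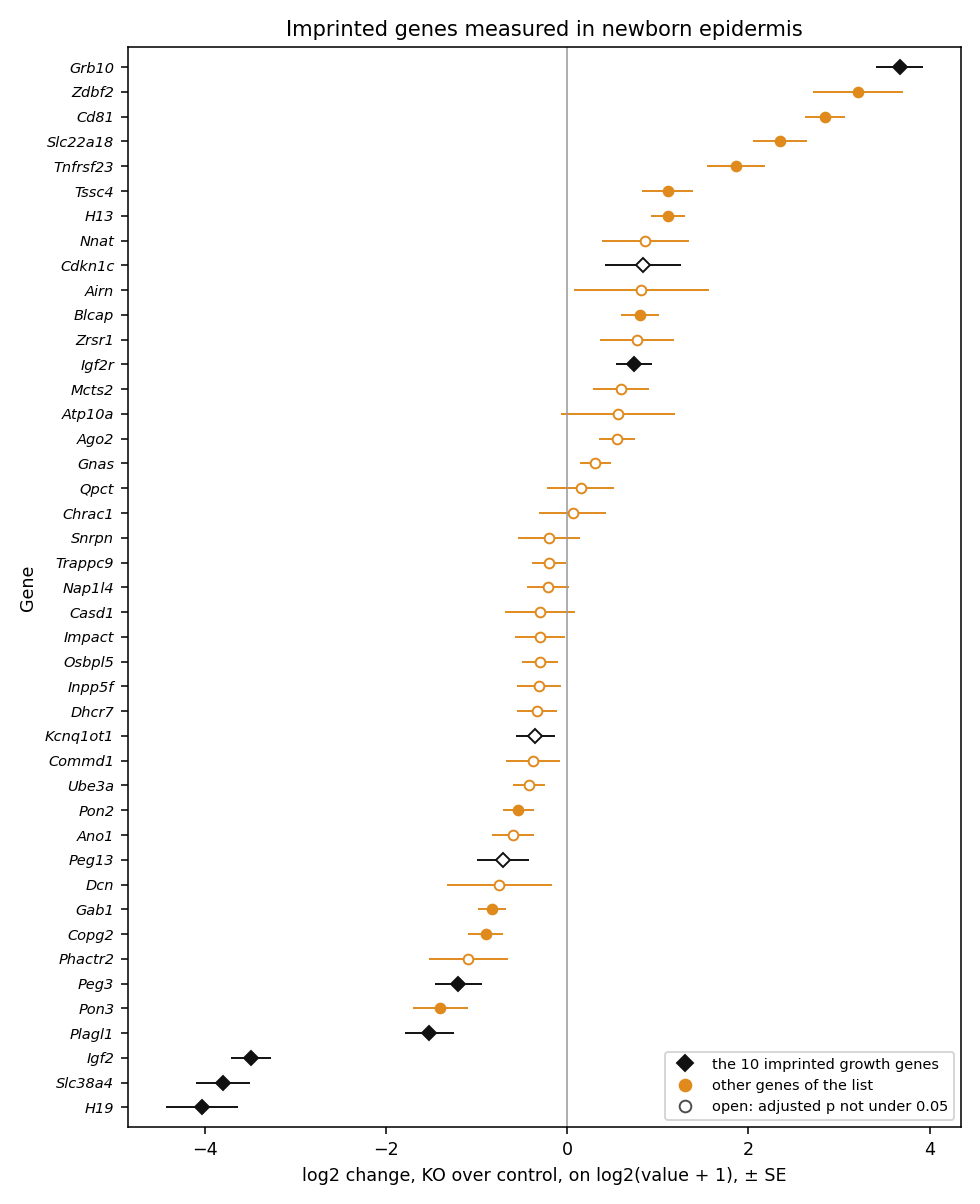
The log2 change, KO over control, with its SE, of the 10 imprinted growth genes (black diamonds) and 33 other imprinted genes (orange circles), ordered by change; open symbols had an adjusted p not under 0.05. H19, Slc38a4 and Igf2 are the 3 lowest and Grb10 is the highest.

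Neighbours at the members' loci were called about as often as all genes in both directions together. More were higher than lower on the deposited scale, and nearly as many were lower as higher with equal library totals. Some are also on the list of other imprinted genes, among them Cd81, Slc22a18, Tnfrsf23 and Tssc4, which were called higher. Of 28 measured neighbours, 8 were higher and 1 lower, which is 32.1% against 33.6% of all genes, 17.7% higher and 15.9% lower. Pairing by adjacent numbers gave 11 and 4, against 44.9% of all genes under that pairing. Without KO 3, 12 were higher, and without control 2, 5 were. Equal library totals gave 5 higher and 4 lower. The nearest measured genes on each side were also read from the GENCODE gene order, a rule chosen after the data were seen. Of 59 such genes, up to 4 on each side, 11 were higher and 7 lower, or 30.5%. On chromosome 7, Igf2os, antisense to Igf2, had 2.47, 1.70 and 0 normalized counts in KO 1 to KO 3 and 54.0, 28.1 and 85.0 in controls 1 to 3. It changed in the direction of Igf2, by −4.62 ± 0.73 (limma adjusted p = 0.00255), or −3.90 with KO 1 alone, and −3.15 with a pseudocount of 5. Reads of the pair cannot be told apart without strand. Next to it Cd81 rose, as given above, and on the H19 side the lysosomal protease Ctsd rose by 1.19 ± 0.18 (limma adjusted p = 0.00205), or by 0.49 with quantile normalization, while Lsp1 and Syt8 were not called (−1.44 and 1.53). Syt8 was called with the pairing, with quantile normalization (1.77), without the trend and without KO 3 (1.92), and Lsp1 with KO 1 alone (−3.35). Between Kcnq1ot1 and Nap1l4, the order was Kcnq1ot1, Cdkn1c and Slc22a18, with log2 changes of −0.35, 0.84 and 2.35.

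Slc38a4 lies beside Slc38a2 and Slc38a1, transporters of the same family that are not imprinted. Slc38a1 had 1306, 1164 and 873 normalized counts in KO 1 to KO 3 and 50.5, 55.6 and 42.5 in controls 1 to 3. It rose by 4.45 ± 0.22 (limma adjusted p = 1.82e-05), opposite to the −3.80 of Slc38a4. Slc38a2 had 8640, 9922 and 1536 normalized counts in KO 1 to KO 3 and 2344, 2067 and 1028 in controls 1 to 3, so KO 3 lay among the controls. Its difference of 1.57 ± 0.66 was not called (limma adjusted p = 0.0976), but was with the pairing (limma adjusted p = 0.00508), without KO 3 (2.44) and with KO 1 alone (2.34).

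Around Grb10, 0 of the 3 listed neighbours measured were called (limma), and 1, Cobl, was lower at an unadjusted p of 0.05. They were Cobl, an actin nucleator (−0.47, limma adjusted p = 0.0898), Ikzf1 (−0.82, limma adjusted p = 0.583) and Fignl1 (−1.21, limma adjusted p = 0.244). Ikzf1 was at 0.25 without KO 3 and −2.11 without KO 2. Cobl was called with the pairing (−0.47), with equal library totals (−0.81) and with quantile normalization (−0.90). Of the genes nearest by order, Gm11992, 3 genes from Grb10, was lower by a log2 value of −1.61 ± 0.32 (limma adjusted p = 0.00677). Beside Peg3 the nearest measured gene, the zinc finger gene Zfp667, averaged 10.7 normalized counts in KO and 34.3 in controls and was lower by −1.78 ± 0.58 (limma adjusted p = 0.0455). That call was lost when any library except KO 3 was left out (−2.02 to −1.19) and with KO 1 alone (−1.30). Beside Plagl1, Sf3b5, a splicing factor subunit, rose by 0.84 (limma adjusted p = 0.0321), a call lost without any single library except KO 1 (0.63 to 0.91), with equal library totals (0.50), without the trend and with KO 1 alone (0.43). Directly beside Igf2r, the kinase gene Map3k4 was lower (−1.03, limma adjusted p = 0.0433), a call lost without any single library except KO 3 (−1.16 to −0.74) and without the trend. Also at Igf2r, Tcp1, a chaperonin subunit, was higher (0.56, limma adjusted p = 0.0366) and Acat2, an acetyl-CoA enzyme, lower (−1.15, limma adjusted p = 0.0290). The Tcp1 call was lost without KO 2 (0.45), without any of controls 1 to 3 (0.61, 0.52 and 0.56), with equal library totals (0.22), with quantile normalization (0.32), without the trend and with KO 1 alone (0.39), and that of Acat2 without KO 1 (−1.16), without KO 2 (−0.80) and without any of controls 1 to 3 (−1.13, −1.17 and −1.14).

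**Figure D4:**
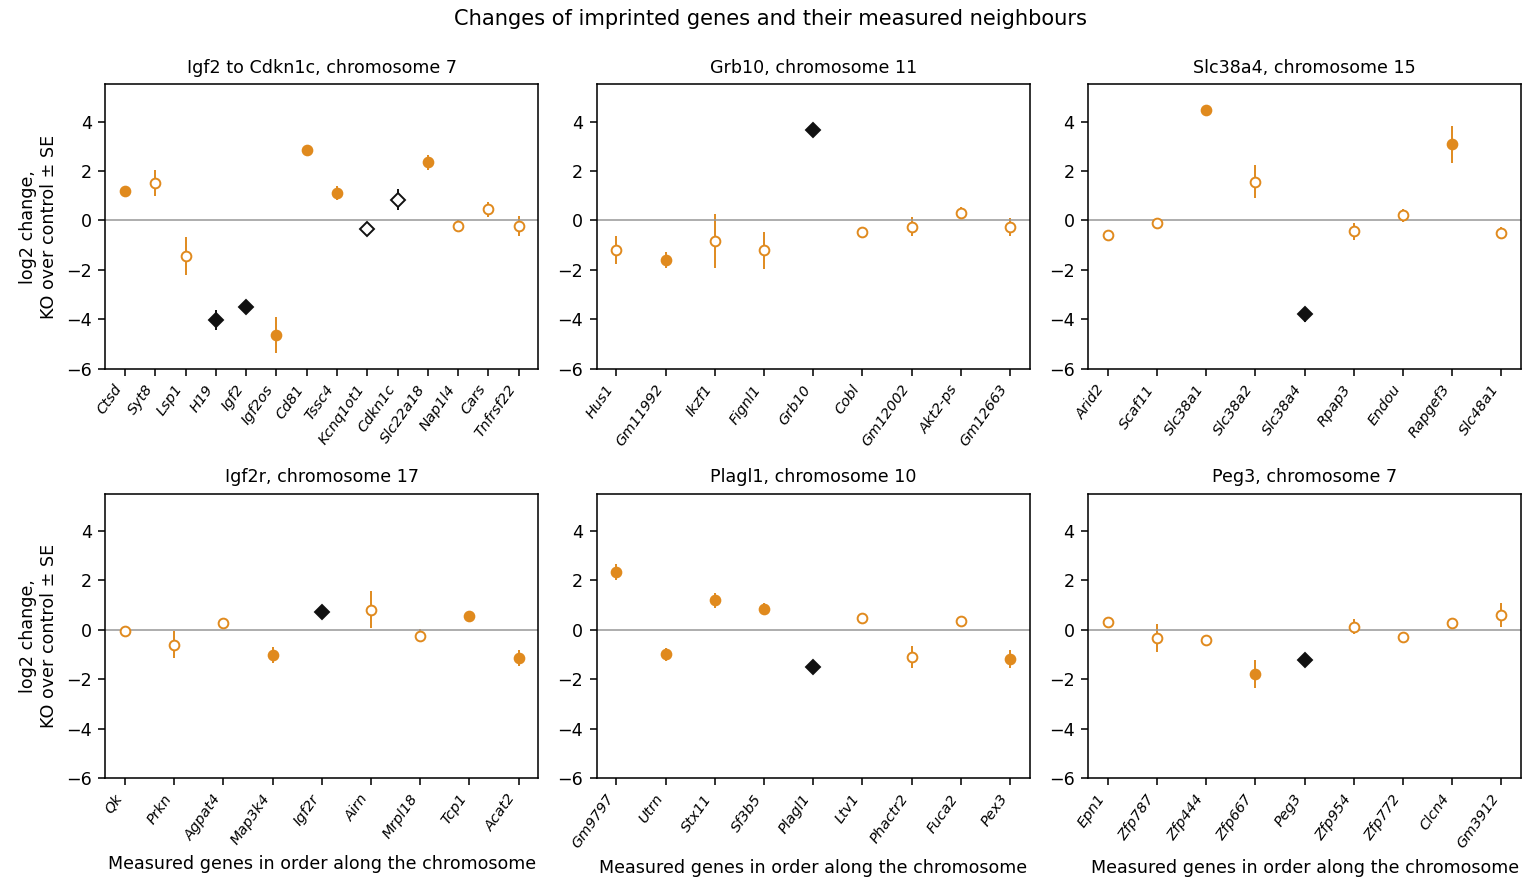
The log2 change, KO over control, with its SE, of members (black diamonds) and measured neighbours (orange circles) in chromosome order at 6 loci; open symbols had an adjusted p not under 0.05, and spacing is by order and not by distance. H19, Igf2 and Igf2os are low side by side, and Grb10 is the one gene called higher in its panel. Slc38a4 has Slc38a2, not called, and Slc38a1 of opposite sign on its left, and Rpap3 of the same sign, not called, on its right.

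The wider IGF and insulin pathway held calls in both directions. Of 50 genes listed 38 were measured, with 9 higher and 11 lower, and a median log2 change of 0.11 against −0.02 over all genes. Without the 3 members on the list, 7 of 35 were higher and 10 lower, which is 48.6% called against 33.6% of all genes. This list too was drawn up with earlier results of these data known, so its share carries no test. The ligand Igf2 was low while the signalling receptor Igf1r had 2039, 1897 and 864 normalized counts in KO 1 to KO 3 and 1808, 2866 and 683 in controls 1 to 3. Igf1r overlapped fully, with a difference of −0.03 ± 0.52 (limma adjusted p = 0.973), and above 0 without KO 3 (0.37), control 1 (0.10) or control 2 (0.43) and with KO 1 alone (0.42). Insr, the insulin receptor, was lower by −0.71 ± 0.18 (limma adjusted p = 0.0188), a call lost without control 1 (−0.69), without control 2 (−0.66) and with KO 1 alone (−0.47).

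Of the measured genes whose products bind IGF or control its release from binding proteins, Stc2 and Igfbp7 were higher and Igfbp5 lower, and Igfbp2, Igfbp3, Igfbp4 and the protease Htra1 were not called. Stc2, an inhibitor of the protease that frees IGF from its binding proteins, had 1105, 645 and 735 normalized counts in KO 1 to KO 3 and 9.06, 12.4 and 20.4 in controls 1 to 3. It rose by 5.82 ± 0.33 (limma adjusted p = 3.79e-05). Igfbp5, an IGF-binding protein, had 7.48, 25.5 and 13.3 normalized counts in KO 1 to KO 3 and 270, 141 and 226 in controls 1 to 3. It changed by a log2 value of −3.80 ± 0.45 (limma adjusted p = 7.16e-04), or −4.60 with KO 1 alone. Igfbp7 was low in every library, with 32.7, 27.2 and 22.2 normalized counts in KO 1 to KO 3 and 0.755, 3.54 and 0 in controls 1 to 3, and rose by 3.81 ± 0.80 (limma adjusted p = 0.00844), or 2.36 with a pseudocount of 5 and 4.40 without control 2. Igf2bp3, an RNA-binding protein of fetal tissue that binds Igf2 mRNA, changed by −1.60 ± 0.27 (limma adjusted p = 0.00346).

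Downstream of the receptors, the substrate adaptors Irs1 and Irs2 went in opposite directions. Irs2 had 2013, 3724 and 2355 normalized counts in KO 1 to KO 3 and 583, 1000 and 446 in controls 1 to 3, and rose by 2.03 ± 0.33 (limma adjusted p = 0.00297), a call lost with KO 1 alone (1.66). Irs1 had 431, 202 and 1035 normalized counts in KO 1 to KO 3 and 2088, 1729 and 2631 in controls 1 to 3. It changed by −2.24 ± 0.50 (limma adjusted p = 0.0112), or −1.66 without KO 2 and −2.84 without KO 3. The PI3-kinase regulatory subunit Pik3r1 fell (−1.90, limma adjusted p = 0.00159), as did the forkhead factor Foxo4 (−1.06, limma adjusted p = 0.00488), while the mTOR activator Rheb rose (0.99, limma adjusted p = 0.00571), a call lost with KO 1 alone (0.77). Foxo3, not called, had a log2 difference of 0.36, and −0.10 with quantile normalization. Irs1, Insr, Pon2 and the 4 IGF-binding genes not called, and the neighbours Igf2os, Gm11992, Map3k4 and Zfp667, were named after their values were seen.

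**Figure D5:**
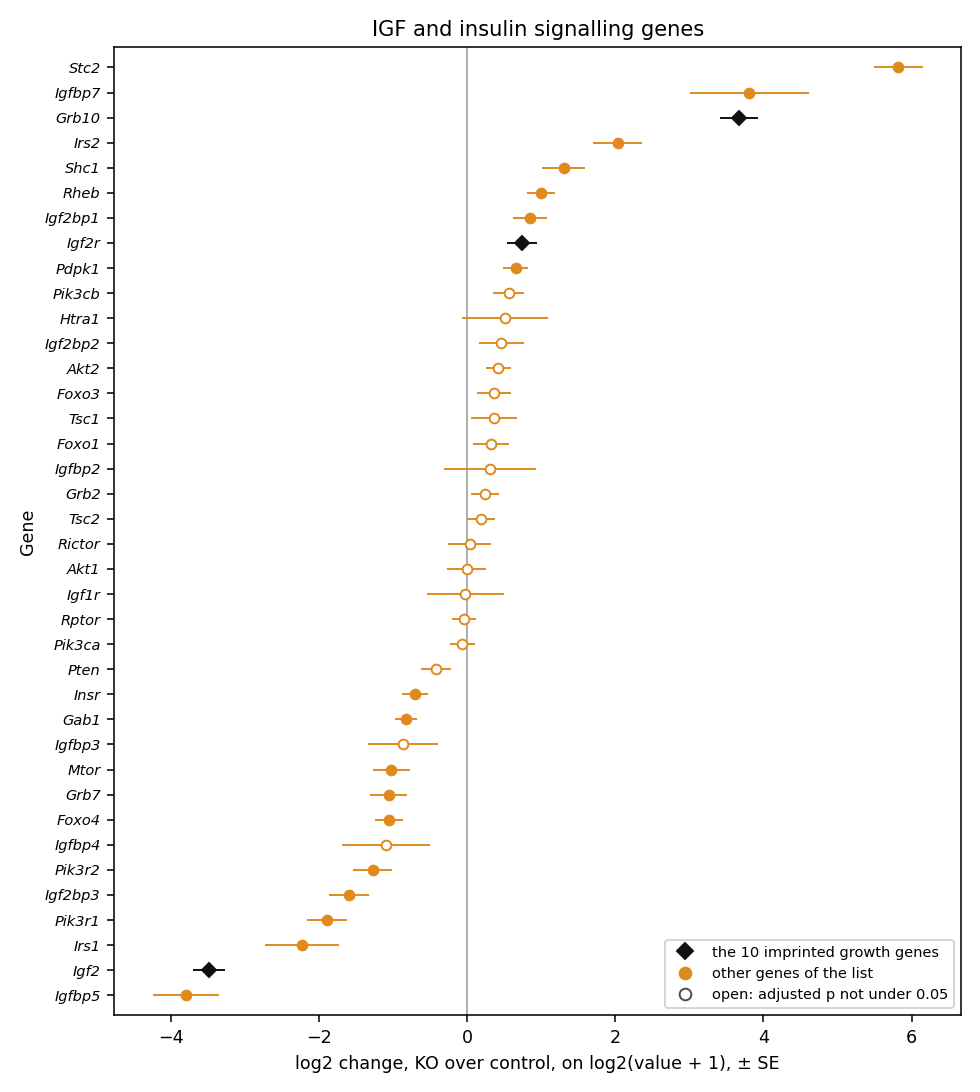
The log2 change, KO over control, with its SE, of 38 IGF and insulin signalling genes, with the imprinted members as black diamonds and the others as orange circles; open symbols had an adjusted p not under 0.05. Stc2 is highest and Igfbp5 and Igf2 are lowest, with Igf1r near 0.

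Of the cyclin-dependent kinase inhibitors, the relatives of Cdkn1c, 6 of 7 were measured, with 1 higher and 1 lower, or 33.3% against 33.6% of all genes. Cdkn1a, which encodes p21, had 8399, 15074 and 18574 normalized counts in KO 1 to KO 3 and 1794, 2798 and 4533 in controls 1 to 3. It rose by 2.23 ± 0.39 (limma adjusted p = 0.00377), and the call was lost with KO 1 alone (1.57). Cdkn2c, encoding p18, changed by a log2 value of −2.16 ± 0.37 (limma adjusted p = 0.00345). Cdkn1b and Cdkn2b had log2 differences of −0.53 and −0.31 and were not called.

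Genes listed under imprint maintenance were also counted. The list is a broad one of DNA methylation and chromatin genes, Dnmt3a, Tet1, Tet2 and Tet3 among them, and not all of these keep imprints. Of 25 listed, 21 were measured, with 8 lower and 0 higher (limma), which is 38.1% lower against 15.9% of all genes. At an unadjusted p of 0.05 there were 13 lower and 0 higher, against 22.5% lower and 23.3% higher, 45.8% together, of all genes. Their median log2 change was −0.60 against −0.02. The list was drawn up with earlier results of these data known, so these shares are a description and carry no test. The DNA methyltransferases Dnmt1 and Dnmt3a were among them. Dnmt1, which copies methylation after replication, had 304, 158 and 343 normalized counts in KO 1 to KO 3 and 712, 656 and 700 in controls 1 to 3, with a change of −1.43 ± 0.28 (limma adjusted p = 0.00671). Dnmt3a changed by −1.34 ± 0.23 (limma adjusted p = 0.00349), the chromatin regulator Arid4b by −0.90 (limma adjusted p = 0.00582) and Atrx by −0.94 (limma adjusted p = 0.00762), whose call was lost with KO 1 alone (−0.71). The other 4 lower genes, Arid4a, Uhrf1, Suz12 and Hells, changed by −0.74, −1.45, −0.55 and −1.65, with adjusted p of 0.0277 to 0.0493 (limma). Arid4a and Suz12 lost the call without any single library except KO 3, Uhrf1 without KO 2, KO 3, control 1 or control 2, and Hells without any except KO 1. Hells was also not called with a pseudocount of 0.5 (−1.71), with array weights (−1.35) or with quantile normalization (−1.40), Uhrf1 with array weights (−1.23) or without the trend, and Suz12 without the trend. With KO 1 alone Arid4a was at −0.75, Suz12 at −0.72, Uhrf1 at −0.53 and Hells at −0.59, and their calls were lost. Trim28, a corepressor at imprinting centres, was not called and had a log2 difference of 0.03, with −0.31 for equal library totals. Methylation and allele of origin were not analysed here.

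Markers of other cells that express imprinted genes were examined beside these values. Of 18 dermal fibroblast markers 11 were measured, 6 higher and 1 lower, or 63.6% against 33.6% of all genes, with summed levels of 869 to 1372 normalized counts in KO and 1410 to 2911 in controls. Postn, an extracellular matrix protein, made up much of the control sums, with 176, 44.2 and 68.7 normalized counts in KO 1 to KO 3 and 2243, 1215 and 1171 in controls 1 to 3. The collagen gene Col3a1 had 122, 182 and 146 normalized counts in KO 1 to KO 3 and 3.02, 29.2 and 8.99 in controls 1 to 3. The fibroblast markers Pdgfra, Lum, Prrx1, Twist2, Fbn1, Dpt and Mfap5 were on the list and were not among the genes measured. None of 9 skeletal muscle and 5 adipocyte markers and 2 of 8 endothelial markers were measured, and the endothelial ones summed to 7.48 to 119 in KO and 5.29 to 8.85 in controls. All 7 melanocyte markers were higher, summing to 2829 to 4682 in KO and 412 to 586 in controls. Leukocyte markers, 7 of 10 measured, summed to 162 to 1159 in KO and 272 to 436 in controls, with KO 2 the highest, and 3 hemoglobin genes summed to 0.935 to 695 in KO, again highest in KO 2, and 13.6 to 112 in controls. The 14 keratinocyte markers were all measured, Lor being listed under both its names, and summed to 658664 to 896869 in KO and 833359 to 897488 in controls, the highest sums of these lists. Markers named singly here, and the keratins above, were singled out once their values were known. The part of these other cells in the changes of the imprinted genes was not tested, and without KO 2 the log2 changes of Igf2, H19, Slc38a4 and Grb10 were −3.34, −3.75, −3.42 and 3.84.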

How the data were processed

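RNA of newborn epidermis was sequenced in bulk in 3 libraries labelled Hnrnpu knockout and 3 controls. The deposited table holds the authors' normalized counts per gene, a signal that is never negative and not whole. Tools named without a role in the submitters' processing notes are Partek 9.0.20.0202 and TopHat2 2.1.0, and the build is mm39. No source used here gives the counting method, strand setting, annotation or scaling. Per the labels' protocols the library kit was TruSeq RNA. Between 81.1% and 83.6% of low values, up to 20 reads, lay within 0.02 of a whole multiple of 1 read, so whole reads could not be recovered and a count model was not fitted. The depths given are estimates from that step, with 1 read worth 0.755 to 1.70 normalized counts.

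Genes above 1 in at least 3 of 6 libraries were kept (12872 of 12894). Values were analysed as log2(value + 1) with limma 3.58.1 in R 4.3.3 (trended variance, no block), with Benjamini-Hochberg adjustment over all genes and a threshold of 0.05. Fold changes are on that scale, which understates the change of low genes. The fit was tested on simulated data. Symbols, gene order and exon length came from GENCODE M21 and promoters from RefSeq, both on GRCm38, a build other than mm39, and 12771 of 12894 identifiers had a symbol. The members and lists were chosen with earlier results of these data known. Named genes were the members, up to 10 called genes of each list by smallest adjusted p, up to 2 not called with the highest mean, and the nearest profiles, with others said to be chosen later. Deviations from the group means correlated at 0.37, 0.23 and 0.36 for libraries with adjacent numbers in their titles, and at −0.28 to −0.07 for the other combinations, so these numbers were taken as pairs from the data, since the labels state no shared litter. Deviations cancel within each group, so the negative values are tied to the positive ones and add no separate support for the pairing.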

Additional observations from a re-analysis of the deposited data

How the results depend on the processing

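Of 160 member values over 16 alternatives, 151 kept direction and call, and of 1056 values of 66 other named genes, 934 did. With equal library totals the median of all genes shifted to −0.36, and the counts called were 1440 genes higher and 3065 lower, 1 member higher, 7 other imprinted genes lower, and 5 neighbours higher and 4 lower. Quantile normalization gave 3 neighbours lower. The replicate block, pairing adjacent numbers, gave 2952 genes higher and 2829 lower, 7 other imprinted genes and 4 neighbours lower. KO 1 alone gave 1265 genes higher and 1220 lower, 5 IGF pathway genes higher and 2 neighbours lower. Leaving out 1 library at a time gave 1512 to 2342 genes higher and 1121 to 2167 lower, 1 to 2 members higher and 5 to 6 lower, 5 to 8 other imprinted genes higher and 3 to 5 lower, 6 to 10 IGF pathway genes higher and 9 to 12 lower, and 5 to 12 neighbours higher and 0 to 1 lower. The ratio differences were 0.25 to 1.08 for Igf2 over H19, 0.81 to 1.70 for Cdkn1c over Kcnq1ot1, −4.52 to −4.06 for Igf2 over Igf2r and −7.35 to −6.95 for Igf2 over Grb10. Signs turned for genes that were not called. Kcnq1ot1 was at 0.06 with KO 1 alone, Foxo3 at −0.10 with quantile normalization, Gnas at −0.03 with equal totals, and Ikzf1 at −2.11 to 0.25 when 1 library was left out. Hnrnpu was at 0.26 with KO 1 alone, 0.02 with array weights, and −0.15 to 0.15 when 1 library was left out (0.15 without KO 3, 0.07 without control 1). Igf1r was at 0.42 with KO 1 alone, and −0.61 to 0.43 when 1 library was left out (0.37 without KO 3, 0.10 without control 1). Trim28 was at −0.31 with equal totals, −0.17 with quantile normalization, and −0.12 to 0.12 when 1 library was left out (−0.06 without control 2). The cause was not tested. The 3 libraries in each group limit precision for genes as low as Cdkn1c.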
